A study of Rattus norvegicus with 6 samples.

Results

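The genes described are the nuclear genes for subunits of the respiratory chain and of ATP synthase, read in primary Leydig cells of Sprague-Dawley rats, the cells of the testis that make testosterone. A probe was a member if its RefSeq accession maps to a rat symbol that begins Nduf followed by a, b, c, s or v and a digit, is Sdha to Sdhd or Cyc1, or begins Uqcr, Cox4 to Cox8 or Atp5. This rule found 92 probes of 75 genes among 30367 probes and 15168 named genes. By complex they fall into 31 genes of complex I, 4 of complex II, 8 of complex III, 17 of complex IV and 15 of complex V. The rule uses names only and no measured value.

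Both groups grew at 34 °C under 5% CO2 with 10% fetal bovine serum in the medium. The exosome group (n = 3) was kept for 24 h with 5 µg/ml of exosomes, vesicles shed here by primary rat Sertoli cells, and the untreated group (n = 3) got none. The comparison asks which Leydig cell transcripts differ after such exposure. Each sample was read on 1 single-colour Agilent array, and the labels do not give the animal or culture behind a replicate. P-values therefore measure the spread among these samples, which may be technical. In RNA of a whole culture, fewer cells of a type and less RNA per cell cannot be told apart.

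Oxidative phosphorylation takes electrons from NADH through complex I and from succinate through complex II to ubiquinone, on to cytochrome c through complex III, and to oxygen through complex IV. Complexes I, III and IV pump protons out of the mitochondrial matrix, and complex V, ATP synthase, uses their return to make ATP. Most subunits are encoded in the nucleus and a few in mitochondrial DNA, so a complex needs subunits from both genomes. In Leydig cells the first enzyme of steroid synthesis, Cyp11a1, also sits in the inner mitochondrial membrane. Nuclear respiratory factor 1 (NRF1) and the ETS factor GABPA are known to bind promoters of many subunit genes.

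A RefSeq promoter of the GRCr8 build, 250 bases before to 50 bases after the annotated start, was matched for 65 of the 75 genes. The NRF1 motif GCATGCG, on either strand, stood in 11 of these 65 promoters (16.9%), against 3.5% of all 27457 promoters and 5.7% of the 9021 promoters of tested genes. It was found in 2 of 8 promoters of members that rose, in 2 of 10 of members that fell and in 6 of 46 of members without a call, and the last was of the untested Cox8c. The 4 windows of 29 bases show it in the members that rose and in those that fell, each on the gene's own strand with the motif in capitals. The motif and its complement CGCATGC overlap wherever CGCATGCG occurs, and Ndufa11 holds further overlapping copies beside the one printed.
Ndufa6, rose, chr7:115750404-115750432, minus strand, 97 bases before the start: tccgcggtagaGCATGCGcatggcagagc
Atp5pf, rose, chr11:37375252-37375280, minus strand, 161 bases before the start: ggccaaagcacGCATGCGtacagtgcagt
Ndufa11, fell, chr9:1637508-1637536, plus strand, 88 bases before the start: ctgcgctgtgcGCATGCGcatgcgcacag
Uqcrc1, fell, chr8:118468175-118468203, plus strand, 30 bases before the start: ctccaccctgcGCATGCGtagcgcggctt
The shorter NRF1 core TGCGCA stood in 30.8% of member promoters, 7.7% of all promoters and 12.4% of those of tested genes. The ETS motif CCGGAAG stood in 20 member promoters (30.8%), against 9.2% and 16.4%. It was in 2 of 8 promoters of members that rose, 1 of 10 of those that fell and 17 of 46 without a call. The NF-Y motif CCAAT was held by 35.4% of member promoters and 37.7% of all, and the SP1 motif GGGCGG by 43.1% and 34.9%, with 57.1% among tested genes. These letters describe the windows and are not shown to be bound sites.

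Signals are log2 processed intensities minus the 75th percentile of the array, so 0 stands for that percentile, and a difference is exosome minus untreated with its standard error (SE). The test took probes well above background on 3 or more of the 6 arrays, and a gene is given by its tested probe of highest mean signal. The term past the test means an adjusted p under 0.05 from limma with Benjamini-Hochberg over all 20433 tested probes, and rose or fell is used of those alone. The share of gene spots well above background ran from 72.6% to 75.6% in the untreated and from 67.2% to 72.2% in the exosome group, with the lowest share on exosome 3. The arrays carry 3 scan times, 1 for the untreated arrays, 1 for exosome 1 and 2 and 1 for exosome 3, so that scan and group cannot be told apart. All 91 tested member probes were well above background on all 6 arrays. The remaining one, of the testis isoform Cox8c, was so on 0 arrays and was not tested.

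Subunit genes of the respiratory chain moved both ways and by small amounts after exosome exposure. Of the 74 tested genes 10 rose, 11 fell and 53 did not pass the test. The share past the test was 28.4%, beside 43.6% of all 10979 tested genes, of which 14.6% rose and 29% fell. On this scale no member reached 2-fold, whereas 9.5% of all genes were past the test and changed at least 2-fold. Differences of members ran from −0.85 to 0.75 with a median of 0.09 and an SD of 0.36, and those of all tested genes had a median of −0.19 and an SD of 0.63. The gap in spread depended on the processing. With a normexp background correction the SDs were 0.36 for members and 0.43 for all tested genes. With it 158 of all tested genes differed at least 2-fold, beside 1202 on the main scale. The exosome and untreated arrays did not overlap in 24 members that were higher and 15 that were lower, beside 24.2% and 37.7% of all tested genes. The lowest and highest differences among members without a call were −0.34 and 0.42.

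The number of calls depends on how the arrays are put on 1 scale. With quantile normalization the median difference of all tested genes was 0.01 and that of members 0.12, and 17 members rose and 11 fell, beside 20.2% and 16.1% of all genes. The authors' table gave 17 and 10 (20.2% and 16.2% of all genes), and the normexp correction 19 and 13 (17.9% and 35.2%). With each array centred on its median the medians were 0.22 and 0.50, and 44 members rose and 1 fell, beside 33.8% and 7.98%. The member median was above that of all tested genes by 0.28 with the 75th percentile, the median and the normexp correction, and by 0.11 with quantile normalization and in the authors' table. All 10 members that rose did so in all 5 scalings, and of the 11 that fell only Ndufa11 did. Among all tested genes, 1412 of the 1603 that rose and 747 of the 3185 that fell did so. These are 12.9% and 6.8% of all tested genes. The sign was the same in all 5 scalings for 56 of the 74 members.

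**Figure D1:**
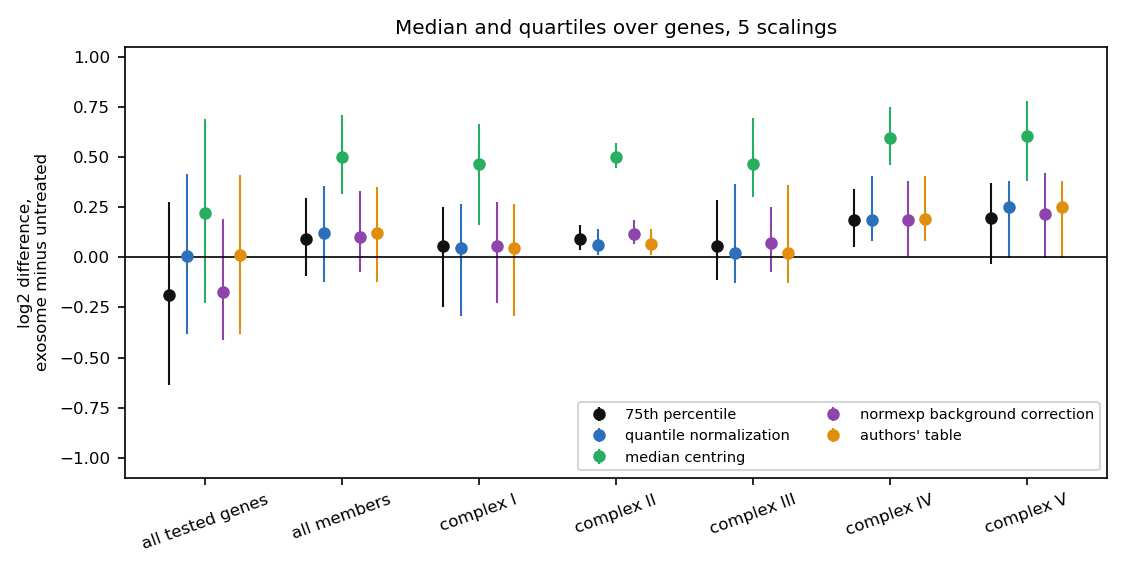
Median log2 difference, exosome minus untreated, over all tested genes, all member genes and the genes of each complex, under 5 scalings of the arrays; bars are quartiles over genes. The member median lies above that of all tested genes under each scaling, by 0.11 to 0.28, and all medians shift upward with median centring.

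No call of a member gene, read from its brightest probe, held when each array in turn was left out. All 21 calls were missed without untreated 2, with adjusted p between 0.0508 and 0.140, while differences stayed between 0.41 and 0.71 for the 10 that rose and between −0.89 and −0.41 for the 11 that fell. Without untreated 3 or without exosome 1, 2 of the 21 remained past the test (adjusted p from 0.0484 to 0.135 and from 0.0453 to 0.135). Without exosome 3, 4 rises and 7 falls remained, with adjusted p up to 0.0949. Without untreated 1 it was 7 and 9 (adjusted p up to 0.0861) and without exosome 2 it was 10 and 10 (up to 0.0707). Over all tested genes, 8.1% of the rises and 25% of the falls remained without untreated 2, and 7.5% of all genes were past the test in each such fit. This limit holds for each of the 21 gene calls of complexes I to V described next.

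Complex I, the NADH dehydrogenase, had 5 subunit genes that rose, 6 that fell and 20 without a call, with a median difference of 0.05. The rises were Ndufa5, Ndufb3, Ndufb4, Ndufc2 and Ndufa6, all accessory subunits, which surround the catalytic core. The log2 signal of Ndufa5 read 4.24, 3.99 and 3.96 untreated and 4.8, 4.57 and 5.06 with exosomes. Each exosome array was above each untreated array, and the difference was 0.75 (SE 0.16, adjusted p = 0.0166). Ndufb3, of the membrane arm, read 2.36, 2.42 and 2.39 untreated and 2.96, 2.81 and 3.25 with exosomes, a difference of 0.62 (SE 0.14, adjusted p = 0.0186). The untreated arrays of Ndufb3 lay within an SD of 0.03 and those with exosomes within 0.22. Ndufb4 rose by 0.50 (SE 0.13), Ndufc2 by 0.47 (SE 0.14) and Ndufa6 by 0.41 (SE 0.13), with adjusted p of 0.0262, 0.0387 and 0.0450.

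Among the 6 complex I genes that fell, Ndufa11, an accessory subunit of the membrane arm, had the largest difference. It read 0.96, 1.13 and 1.53 untreated and 0.32, 0.40 and 0.35 with exosomes. The exosome arrays lay close together and below all untreated ones, and the difference was −0.85 (SE 0.17, adjusted p = 0.0131). Ndufb11, also of the membrane arm, read 4.07, 4.18 and 4.44 untreated and 3.43, 3.56 and 3.40 with exosomes, a difference of −0.76 (SE 0.14, adjusted p = 0.0119). Ndufb6 fell by 0.42 (SE 0.12) and Ndufb7 by 0.39 (SE 0.12), with adjusted p of 0.0293 and 0.0432. With median centring Ndufb7 stood at 0.02, so its direction depends on the scaling.

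The 7 core subunits of complex I, which carry the flavin and the iron-sulfur clusters, had a median difference of 0.01, and 2 of them fell. Ndufs7, which holds the last iron-sulfur cluster before ubiquinone, read 2.70, 2.66 and 2.85 untreated and 2.11, 2.30 and 2.09 with exosomes, a difference of −0.57 (SE 0.12, adjusted p = 0.0160). Ndufs3, a core subunit of the peripheral arm, fell by 0.42 (SE 0.13, adjusted p = 0.0408). The remaining core genes did not pass the test. Ndufs1 differed by 0.01, Ndufs8 by 0.13, the flavin-binding Ndufv1 by 0.04 and Ndufv2 by −0.18. The groups overlapped in each of these 4 genes. The 24 accessory genes had a median difference of 0.08, with 5 rises and 4 falls. Ndufa4, which the rule places here by name although its protein is now counted as a subunit of complex IV, differed by 0.18 (adjusted p = 0.330). The difference between core and accessory genes was not tested.

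**Figure D2:**
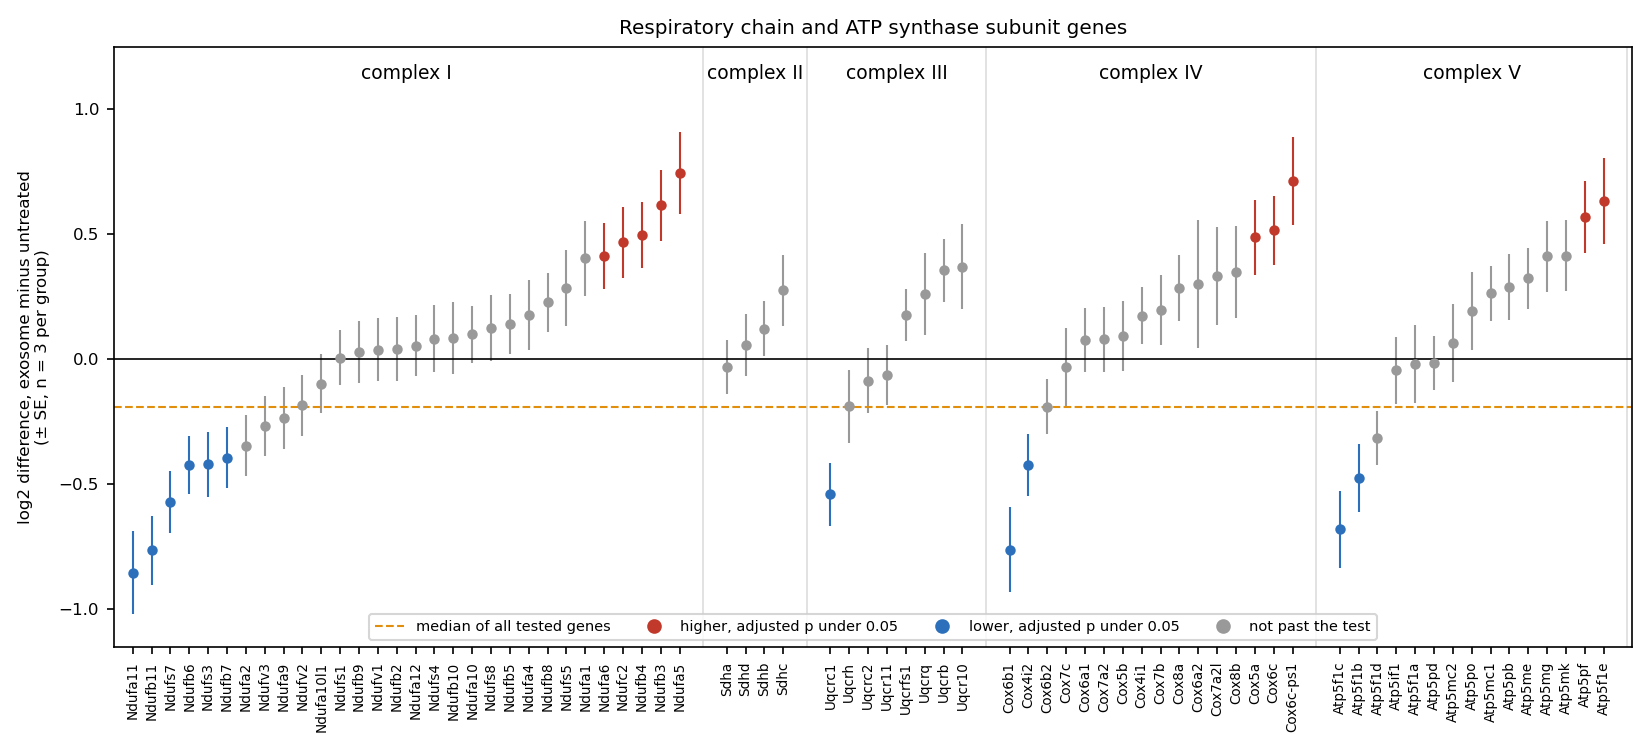
Log2 difference, exosome minus untreated, of the tested member genes reported here, ordered within its complex; bars are SE with n = 3 per group, red and blue points passed the test and the dashed line is the median of all tested genes (−0.19). Complexes I, IV and V hold points past the test on both sides of 0, complex II holds none, and complex III holds 1 fall.

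Complex II, succinate dehydrogenase, is encoded wholly in the nucleus and none of its 4 genes passed the test. Sdha, the flavoprotein that oxidises succinate, read 3.04, 2.93 and 2.94 untreated and 2.96, 2.98 and 2.89 with exosomes, so that the groups overlapped. Its difference was −0.03 (SE 0.11, adjusted p = 0.836). Sdhb, the iron-sulfur subunit, differed by 0.12 (SE 0.11), and its groups did not overlap. The membrane anchors Sdhc and Sdhd differed by 0.28 (SE 0.14) and 0.06 (SE 0.12), and their groups overlapped.

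Complex III, cytochrome bc1, had 1 fall and 7 genes without a call, with a median difference of 0.06. Uqcrc1, a core protein of the matrix side, read 1.08, 1.18 and 1.32 untreated and 0.58, 0.79 and 0.59 with exosomes. All exosome arrays were lower, and the difference was −0.54 (SE 0.13, adjusted p = 0.0194). Its partner core protein Uqcrc2 read 3.08, 3.29 and 3.45 untreated and 3.20, 3.18 and 3.18 with exosomes, a difference of −0.09 (SE 0.13, adjusted p = 0.620) with overlapping groups. The Rieske iron-sulfur protein Uqcrfs1 differed by 0.18 (SE 0.10, adjusted p = 0.208). The small subunits Uqcr10 and Uqcrb missed the test at 0.37 (adjusted p = 0.116) and 0.36 (adjusted p = 0.0582), and passed it with quantile normalization at 0.43 and 0.38 (adjusted p = 0.0319 and 0.0291). On the 3 exosome arrays Uqcr10 read 5.32, 4.91 and 5.49, one of the widest spreads among these genes (SD 0.30). No probe matched Cyc1, the cytochrome c1 gene.

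Complex IV, cytochrome c oxidase, had 3 rises and 2 falls among 16 tested genes, with a median difference of 0.19. Cox5a, a subunit of the matrix side, read 4.45, 4.36 and 4.31 untreated and 4.84, 4.64 and 5.11 with exosomes, a difference of 0.49 (SE 0.15, adjusted p = 0.0393). Cox5b, a different matrix-side subunit despite the similar name, read 4.75, 4.73 and 4.52 untreated and 4.73, 4.61 and 4.94 with exosomes. The groups overlapped for Cox5b, and the difference was 0.09 (SE 0.14, adjusted p = 0.607). Cox6c, a membrane subunit, read 4.71, 4.73 and 4.71 untreated and 5.22, 5.04 and 5.45 with exosomes, a difference of 0.52 (SE 0.14, adjusted p = 0.0269). The third rise, 0.71 (SE 0.17, adjusted p = 0.0215), was of Cox6c-ps1, a pseudogene symbol that the rule takes by its name. No probe sequence was used here, so signals of Cox6c and Cox6c-ps1 RNA cannot be told apart. In RefSeq, 34 of the 75 member genes have a pseudogene named after them, 5 of the 10 that rose and 3 of the 11 that fell.

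Isoform pairs of complex IV differed in what they showed. Cox4i2, the isoform known for its induction at low oxygen, read 5.12, 4.88 and 4.92 untreated and 4.58, 4.63 and 4.45 with exosomes, a difference of −0.42 (SE 0.12, adjusted p = 0.0353). With quantile normalization it missed the test at −0.37 (adjusted p = 0.129). The common isoform Cox4i1 read 5.67, 5.65 and 5.65 untreated and 5.82, 5.72 and 5.95 with exosomes, a difference of 0.18 (SE 0.11, adjusted p = 0.243). Cox6b1, of the intermembrane side, read 2.30, 2.58 and 2.89 untreated and 1.75, 1.91 and 1.83 with exosomes, a difference of −0.76 (SE 0.17, adjusted p = 0.0174). Its testis isoform Cox6b2 differed by −0.19 (SE 0.11, adjusted p = 0.203). The difference of one isoform's change from the other's was not tested.

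The remaining isoform groups of complex IV held no call. Cox6a1 differed by 0.08 (SE 0.13), and the muscle isoform Cox6a2 by 0.30 (SE 0.26). Cox6a2 had the widest spread among tested member genes read from their brightest probe (SD 0.43 over the exosome arrays). Cox7a2 differed by 0.08 and Cox7a2l, a factor of respiratory supercomplexes, by 0.34 (SE 0.20, adjusted p = 0.203). On the exosome arrays Cox7a2l read 5.02, 4.53 and 5.21, with exosome 2 among the untreated values of 4.73, 4.52 and 4.50. Cox7b differed by 0.20, Cox8a by 0.29 (adjusted p = 0.120) and the muscle isoform Cox8b by 0.35 (SE 0.18, adjusted p = 0.161). Cox8a passed the test with quantile normalization at 0.35 (adjusted p = 0.0365). No probe matched Cox7a1 or Cox7b2.

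Complex V, ATP synthase, had 2 rises and 2 falls among 15 genes, with a median difference of 0.19. Of the 5 subunits of its F1 part, which holds the catalytic head and the central stalk, 2 fell and 1 rose. Atp5f1c, the gamma subunit that turns inside the head, read 3.30, 3.40 and 3.61 untreated and 2.66, 2.99 and 2.62 with exosomes, a difference of −0.68 (SE 0.15, adjusted p = 0.0179). Atp5f1b, the catalytic beta subunit, read 3.28, 3.16 and 3.21 untreated and 2.70, 2.95 and 2.58 with exosomes, a difference of −0.48 (SE 0.14, adjusted p = 0.0323). With quantile normalization Atp5f1b missed the test at −0.50 (adjusted p = 0.0559). Atp5f1e, the epsilon subunit, read 5.22, 4.87 and 4.81 untreated and 5.60, 5.38 and 5.81 with exosomes, a difference of 0.63 (SE 0.17, adjusted p = 0.0281). The alpha subunit Atp5f1a differed by −0.02 (SE 0.15, adjusted p = 0.932) and the delta subunit Atp5f1d by −0.32 (SE 0.11, adjusted p = 0.0538).

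The 9 genes of the peripheral stalk, outside F1, and of the membrane part had 1 rise and 0 falls. The median of the 9 differences was 0.29, and 8 were above 0. Atp5pf, coupling factor 6 of the stalk, read 4.29, 4.22 and 4.27 untreated and 4.81, 4.62 and 5.07 with exosomes, a difference of 0.57 (SE 0.14, adjusted p = 0.0232). The F1 genes had a median of −0.32, and the difference between the F1 genes and these 9 was not tested. Of the 3 genes for subunit c, which forms the rotating ring, Atp5mc1 differed by 0.26 (SE 0.11, adjusted p = 0.0944), Atp5mc2 by 0.06 (SE 0.16, adjusted p = 0.757), and no probe matched Atp5mc3. The inhibitor Atp5if1, which blocks ATP hydrolysis, read 4.21, 4.35 and 4.46 untreated and 4.24, 4.18 and 4.46 with exosomes, a difference of −0.04 (SE 0.13, adjusted p = 0.810).

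Calls by complex also moved with the scaling. With quantile normalization complex I had 6 rises and 7 falls, complex II 0 and 0, complex III 2 and 1, complex IV 4 and 1, and complex V 5 and 2. Atp5me, Atp5mg and Atp5mk, small membrane subunits of ATP synthase, entered there at 0.38, 0.47 and 0.38. With median centring the rises were 18, 3, 4, 10 and 9 for complexes I to V, with 1 fall, in complex I. The complexes were not tested against each other.

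Among the members that rose, exosome 3 was the highest exosome array in 10 of 10 and exosome 2 the lowest in 10 of 10. Among the 11 that fell, exosome 2 was the highest exosome array in 9 and untreated 3 the highest untreated array in 9. The order of the rises was also common among the 53 members without a call. There exosome 3 was the highest exosome array in 45 and exosome 2 the lowest in 38. In the same 53, exosome 2 was the highest exosome array in 7 and untreated 3 the highest untreated array in 29. The median member, against the mean of the untreated arrays, stood at 0.06 on exosome 1, 0.00 on exosome 2 and 0.23 on exosome 3. With quantile normalization these were 0.08, 0.11 and 0.11, so the gap between the exosome arrays shrank with that scaling. Over members the median SD was 0.09 on the untreated and 0.15 on the exosome arrays, and for complex V 0.05 and 0.21. For the 14 member probes spotted 10 times, the median SD was 0.05 between spots of 1 array, and 0.10 and 0.15 between untreated and exosome arrays.

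**Figure D3:**
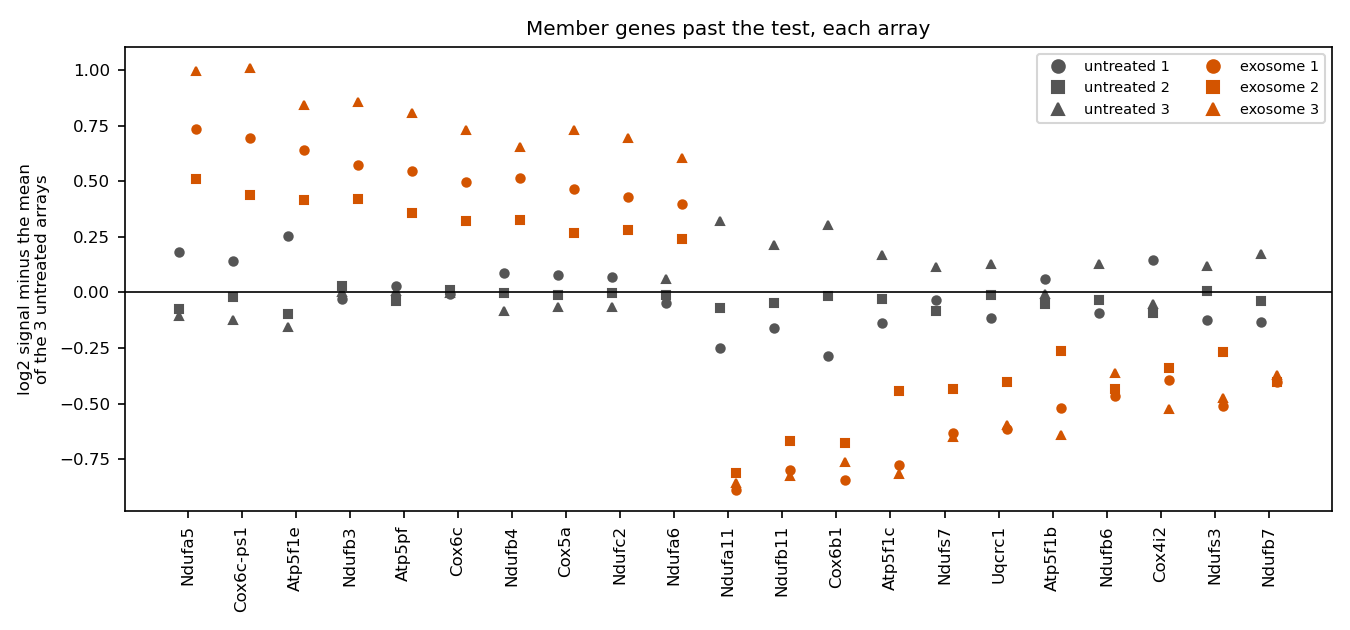
Log2 signal of the 21 member genes past the test on each of the 6 arrays, minus the mean of the 3 untreated arrays of that gene; marker shapes show the replicate and colours the group. In all 10 genes that rose, exosome 3 (triangle) is the highest and exosome 2 (square) the lowest of the exosome arrays. Of the 53 members without a call, not shown, exosome 3 is the highest in 45 and exosome 2 the lowest in 38. The groups do not overlap in any gene shown, but these genes were picked by the test on the same arrays. Over all tested genes the groups do not overlap in 61.9%.

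Probes of 1 gene did not always move alike. For the 14 members with more than 1 tested probe, the log ratio of each pair of probes was formed within an array, where any scaling of the whole array cancels, and tested with limma. In 9 of 20 pairs (45%), of 6 genes, the change differed between the probes past the test, beside 41.8% of 1893 pairs of all genes. The share in members is close to that background.

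Ndufv3, an accessory subunit beside the flavin site with known splice forms, had the widest gap. Its brightest probe read 2.54, 2.66 and 2.79 untreated and 2.36, 2.35 and 2.49 with exosomes, a difference of −0.26 (adjusted p = 0.116). The second read 2.33, 2.14 and 2.12 untreated and 2.56, 2.42 and 2.66 with exosomes, a difference of 0.35 (adjusted p = 0.0612). The third, spotted 10 times, read 1.0, 0.97 and 1.14 untreated and 0.14, 0.45 and 0.07 with exosomes, a difference of −0.81 (adjusted p = 0.0116), which stayed past the test in each of the 6 fits that left out 1 array. The changes of the second and the third differed by 1.17 (SE 0.20, adjusted p = 0.0169), and all 3 pairs of Ndufv3 differed past the test. All 3 probes carry the same RefSeq accession.

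Of the 3 probes of Cox6b1, 2 fell by 0.76 and 0.74 and the third, which read 0.59, 0.38 and 0.38 untreated and 0.56, 0.30 and 0.84 with exosomes, differed by 0.12 with overlapping groups. The pairs with the third probe differed by −0.88 (SE 0.26, adjusted p = 0.0407) and −0.85 (SE 0.23, adjusted p = 0.0296). Ndufb4, called as a rise from its brightest probe, had a second probe at −0.22 (adjusted p = 0.149), and the pair differed by 0.72 (SE 0.16, adjusted p = 0.0200). With the mean of its probes Ndufb4 differed by 0.14 and missed the test (adjusted p = 0.301).

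Other genes passed the test on a dimmer probe only. All calls of dimmer probes, except that of the third Ndufv3 probe, were missed without untreated 2. With median centring the falls of the dimmer Ndufs4, Ndufa10l1, Uqcr11 and Cox6b1 probes and of the third Ndufv3 probe were missed. Ndufs4, an accessory subunit needed for complex I assembly, differed by 0.08 on its brightest probe. Its second, at −2.19, −1.93 and −1.73 untreated and −2.62, −2.33 and −2.72 with exosomes, fell by 0.60 (adjusted p = 0.0324). With quantile normalization this second probe missed the test at −0.36 (adjusted p = 0.0951). The pair of Ndufs4 probes differed by 0.68 (SE 0.18, adjusted p = 0.0271). Ndufa10l1 differed by −0.10 on its brightest probe and fell by 0.82 on its second (adjusted p = 0.0235), and the pair differed by 0.72 (SE 0.19, adjusted p = 0.0296). Uqcr11, a small subunit of complex III, differed by −0.06, −0.56 and −0.35 on its 3 probes, of which the second fell, and 1 of its 3 pairs differed by 0.50 (SE 0.12, adjusted p = 0.0247).

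In the other members with several probes no pair differed past the test. Atp5mg differed by 0.41 (adjusted p = 0.0552) and rose by 0.58 (adjusted p = 0.0215) on its 2 probes. Uqcrb differed by 0.36 on the brighter probe and rose by 0.47 on the dimmer one (adjusted p = 0.0462). With the normexp correction the dimmer Uqcrb probe missed the test at 0.17 (adjusted p = 0.252). Cox6c-ps1 had a second probe at 0.36 (adjusted p = 0.264). Ndufb10 differed by 0.09 and −0.31, Ndufs5 by 0.28 and 0.25, Cox7a2 by 0.08 and −0.21, Atp5mc2 by 0.06 and −0.10, and Atp5mk by 0.42 and 0.32. Counted by probe, 12 of 91 member probes rose and 16 fell, beside 11.5% and 30.8% of all tested probes.

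**Figure D4:**
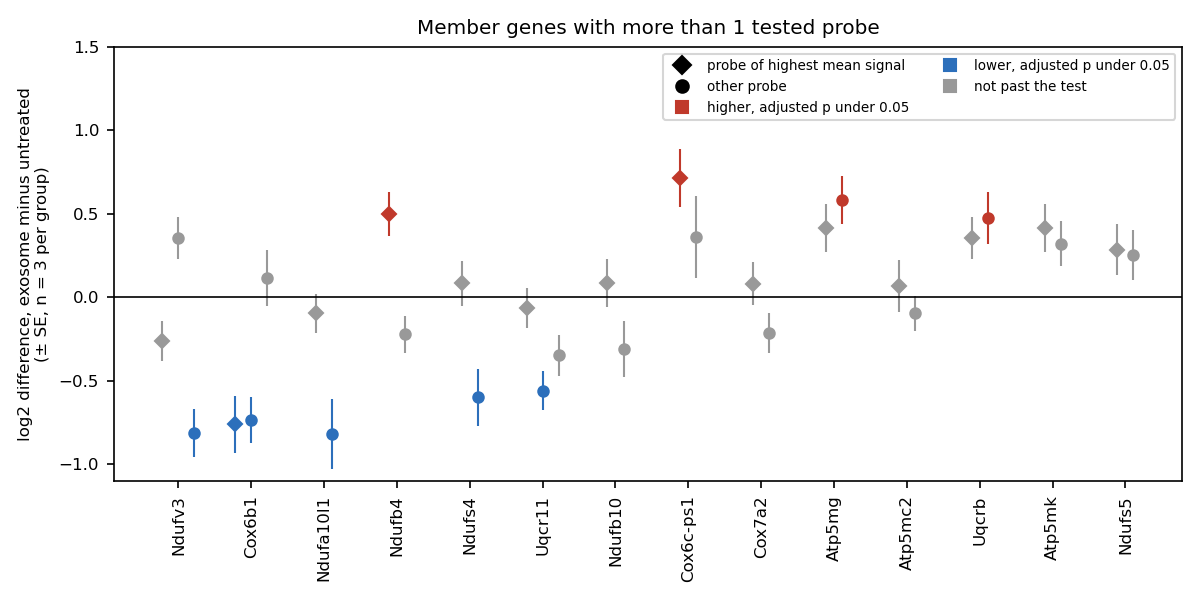
Log2 difference, exosome minus untreated, of each tested probe of the 14 member genes with more than 1, ordered by the gap between a gene's probes; bars are SE with n = 3 per group and diamonds mark the probe of highest mean signal. For Ndufv3, at the left, the probes lie at −0.26, 0.35 and −0.81, whereas both probes of Ndufs5 lie near 0.28 and 0.25.

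Genes that build or feed the chain also moved both ways. Among all tested genes 14.6% rose and 29% fell, or 20.2% and 16.1% with quantile normalization and 33.8% and 7.98% with median centring. The lists below were not tested against these shares. Of 11 tested complex I assembly factors 3 rose and 1 fell. Ndufaf8 read 2.01, 1.72 and 1.61 untreated and 2.75, 2.51 and 3.06 with exosomes, a difference of 0.99 (SE 0.19, adjusted p = 0.0124). Ndufaf3 rose by 0.81 and Ndufaf4 by 0.61, and Timmdc1 fell by 0.75, though with quantile normalization Timmdc1 missed the test at −0.50. Among 10 factors for complexes II and III, 2 rose (Sdhaf1 by 0.58, Uqcc6 by 0.46) and 2 fell (Lyrm7 by 0.60, Uqcc1 by 0.56), the last 2 missing the test with quantile normalization. Of 17 factors for complex IV, Cox19 rose by 0.47, and Sco1 and Pet100 fell by 0.61 and 0.54, of which Sco1 missed the test with quantile normalization (−0.51, adjusted p = 0.0726). Of 5 for complex V, Atpaf2 rose by 0.59. The balance moved with the scaling. With quantile normalization complex I assembly had 4 rises and 0 falls and complex IV assembly 5 and 1, and with median centring they had 8 and 0 and 7 and 0. Factors for complexes II and III went to 2 and 0 and to 5 and 0, and those for complex V to 2 and 0 under both.

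In ubiquinone synthesis 2 of 12 genes rose and 2 fell, with Coq2 at 0.56, Coq9 at 0.42, Coq6 at −0.60 and Coq10a at −1.11. In the citric acid cycle 1 of 14 rose and 5 fell, beside 14.6% and 29% of all tested genes. Mdh2, which makes oxaloacetate and NADH, read 0.18, 0.51 and 0.81 untreated and −0.61, −0.22 and −0.74 with exosomes, a difference of −1.03 (SE 0.21, adjusted p = 0.0145). Idh3b fell by 0.80, Idh3a by 0.71 and Ogdh by 0.47, and Suclg1 rose by 0.52. Of these falls, Idh3a and Ogdh missed the test with quantile normalization, at −0.27 and −0.25. The median of the 14 was 0.09, above 0 although more genes fell than rose. With median centring 8 of the 14 rose and 1 fell, and 4 of the 12 ubiquinone genes rose and 1 fell.

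Of 11 tested regulators of mitochondrial genes 4 rose and 3 fell, beside 14.6% and 29% of all tested genes. Tfam, which packages mitochondrial DNA and starts its transcription, read 1.42, 1.46 and 1.37 untreated and 1.99, 1.86 and 2.21 with exosomes, a difference of 0.60 (SE 0.13, adjusted p = 0.0163). The mitochondrial transcription factor Tfb2m rose by 0.42, Gabpa by 0.76 and Esrra by 0.63. The mitochondrial RNA polymerase Polrmt read −3.00, −3.20 and −3.18 untreated and −4.09, −3.80 and −4.48 with exosomes, a difference of −0.99 (SE 0.19, adjusted p = 0.0127). Yy1 fell by 0.76 and Creb1 by 0.64. With quantile normalization 4 of the 11 rose and 0 fell, and Esrra missed the test at 0.60 (adjusted p = 0.0519). With median centring 6 rose and 0 fell. The coactivators Ppargc1a and Ppargc1b were well above background on 0 arrays. Cycs, cytochrome c, differed by −0.15, and Ndufab1, the carrier protein of complex I, by 0.05. All these calls in the other genes of the pathway were missed without untreated 2, Ndufaf8 at an adjusted p of 0.0516 and Tfam at 0.0620, for example.

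Markers of the cell types that such a culture could hold were read on the same arrays. Their rises and falls stand beside 14.6% and 29% of all tested genes. The summed level of the 8 tested Leydig cell markers, as multiples of the 75th percentile, was 93.1 to 101 on untreated and 92.1 to 108 on exosome arrays. Of these 8, Cyp11a1 fell by 0.86 (SE 0.12, adjusted p = 0.00997) and 0 rose, and 2 further Leydig markers, Lhcgr and Nr5a1, were well above background on 0 arrays. The sum of 9 macrophage markers was 19.7 to 20.7 and 8.03 to 18.7, and 4 of the 9 fell. The low end is exosome 3, where Cd68 read −3.45 against 3.15 and 3.35 on exosome 1 and 2 and 3.19 to 3.46 untreated (adjusted p = 0.308). Without Cd68 the sum of the other 8 was 9.47 to 10.6 untreated and 7.94 to 8.53 with exosomes. For 5 Sertoli cell markers it was 19.5 to 26.7 and 12.2 to 14.5, with 1 rise and 2 falls and Amh on 0 arrays. Most of that sum is Clu, which fell, with a difference of −1.02, and a sum without Clu was not formed. Inha also fell, with a difference of −0.56. Wt1 rose by 0.49, and Fshr and Rhox5 differed by 0.495 and 0.16 without a call. For 6 peritubular myoid markers the sum was 39.4 to 42.8 and 27.1 to 34.4, with 1 rise and 2 falls. For 4 endothelial markers it was 0.696 to 0.911 and 1.13 to 1.47, with 2 rises and 2 falls and Tek on 0 arrays. For 3 germ cell markers it was 1.60 to 1.71 and 2.05 to 2.46, with 1 rise and 1 fall. Ddx4, Prm1, Tnp2 and Sycp3 were on 0 arrays. Most of that sum is Odf2, at log2 0.67, 0.57 and 0.57 untreated and 1.01, 0.96 and 1.24 with exosomes. The much dimmer Prm2 fell by 0.46, and Tnp1 differed by −0.03. For 2 red cell markers the sum was 1.78 to 1.91 and 1.83 to 2.71, with 0 rises and 1 fall. With quantile normalization the rises and falls were 1 and 2 for macrophage, 2 and 0 for endothelial, 1 and 0 for germ cell and 0 and 0 for red cell markers, with the counts for Leydig, Sertoli and myoid markers as with the 75th percentile. With median centring they were 2 and 0 for Leydig, 1 and 0 for macrophage, 2 and 1 for Sertoli, 1 and 0 for myoid, 2 and 0 for endothelial, 1 and 0 for germ cell and 1 and 0 for red cell markers. The part of such cells in the subunit genes' values was not tested.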

How the data were processed

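Total RNA of 6 rat Leydig cell samples was labelled with Cy3 and read on 1-colour Agilent arrays with Feature Extraction 11.0.1.1, per the submitters' processing notes. The deposited array files hold intensities, which per the file headers had background and spatial trend removed within each array, with no step between arrays. The authors also deposited a table of log2 values. Its columns share a median of 5.69 and correlate at r of 0.996 or above with the array of the same sample. It was treated as quantile normalized and used as an alternative only.

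Control spots (1377 of 44254 per array) and outlier spots (388 to 572) were left out. Spots of a probe were averaged as log2 intensity, and the 75th percentile of each array was subtracted. Symbols came from RefSeq accessions through a table of assembly GRCr8, which gave names and no gene positions, as the array design follows another build. They were found for 18005 probes, and 12362 had none. limma 3.58.1 in R 4.3.3 fitted the 2 groups to 20433 probes with Benjamini-Hochberg adjustment (prior degrees of freedom 2.62), as tested on simulated data. Python 3.11.15 with pandas 2.3.3, numpy 2.4.6 and matplotlib 3.10.9 served for tables and figures. The number of arrays limits the precision.

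Named were up to 4 rises and 4 falls of smallest p per complex, core subunits, isoform groups, genes with several probes, the untested gene and the 5 members of widest spread. Ndufa4, Ndufa6, Ndufb7, Atp5me and the genes named from the other pathway lists were chosen after their values were seen. The members and gene lists were chosen with earlier results of these data known. Counts include some genes whose own values are not reported here. The mitochondrially encoded subunits were not analysed here. Normexp correction used the median spot signal, since the files carry no mean signal. The main fit did not pair the samples by replicate number. Deviations from the group mean correlated at −0.09, −0.03 and −0.02 between arrays of the same number. Between arrays of different numbers they correlated at −0.06 to 0.105. With so few arrays and no pairing in the labels, these values cannot decide whether the samples were paired.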

Additional observations from a re-analysis of the deposited data

How the results depend on the processing

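The 10 rises and 11 falls of member genes became 17 rises with quantile normalization and with the authors' table, and 19 with normexp. They became 27 rises and 17 falls with array weights (from 0.35 to 7.67, highest for untreated 2) and 44 and 1 with median centring. With no filter on dim probes they were 4 and 6, and with the replicate number as a block 3 and 4. The labels do not say whether that number pairs the samples. By probe, 12 rises and 16 falls became 19 rises with quantile normalization and the authors' table, 22 with normexp, 33 and 26 with array weights, 49 and 1 with median centring, 5 and 10 with no filter, and 3 and 8 with the replicate block. Complex I (5 and 6) gave 18 and 1 with median centring, 9 and 10 with array weights, 2 and 3 with no filter, 2 and 2 with the replicate block, and 3 rises with the scan as a random block. Complex II (0 and 0) gave 3 rises with median centring and 1 each with normexp and array weights. Complex III (0 and 1) gave 4 rises and 0 falls with median centring, 3 rises with array weights, 2 with quantile normalization, normexp and the authors' table, 1 with a filter on all 6 arrays or the mean of a gene's probes, and 0 falls with the replicate block. Complex IV (3 and 2) gave 10 and 0 with median centring, 7 rises with array weights, 1 and 1 with no filter and with the replicate block, and 1 fall with quantile normalization, the authors' table and the scan block. Complex V (2 and 2) gave 9 and 0 with median centring, 7 rises with array weights, 6 with normexp, 5 with quantile normalization and the authors' table, 4 with the filter on all 6 arrays, 1 and 1 with no filter, and 0 and 1 with the replicate block. Median centring moved the median difference to 0.50 for all members and to 0.47, 0.50, 0.47, 0.60 and 0.61 for complexes I to V, and Ndufb7 from −0.39 to 0.0192. The cause was not tested. Leaving out 1 array gave 0 to 18 rises and 0 to 10 falls of genes, 0 to 21 and 1 to 15 of probes, 0 to 6 and 0 to 6 in complex I, 0 and 0 in II, 0 to 2 and 0 to 1 in III, 0 to 5 and 0 to 2 in IV and also in V. Medians then ran from 0.02 to 0.16 for all members and from −0.01 to 0.12, 0.04 to 0.12, 0.03 to 0.09, 0.08 to 0.24 and 0.08 to 0.29 for complexes I to V. The pairwise probe ratios, the counts over 5 scalings and over left-out arrays, differences relative to the median of all genes and the macrophage sum without Cd68 were chosen after seeing the data.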
